A study of Homo sapiens with 12 samples.

Results

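A set of 10 genes of the system that cuts the extracellular matrix were followed in pancreatic adenocarcinoma cells sorted with the GCTM-5 antibody: the matrix metalloproteinase genes *MMP1*, *MMP7*, *MMP10*, *MMP11*, *MMP13*, *MMP14* and *MMP15*, and the tissue inhibitor genes *TIMP1*, *TIMP2* and *TIMP3*. They were taken by symbol, 10 of the 23346 genes in the deposited table, and all 10 were found. The study sorted 2 established human lines, SW1990 and CFPAC-1, into antigen positive and antigen negative cells and sequenced polyadenylated RNA from each fraction, to ask how the fractions of a line that stains unevenly differ. The groups were SW1990 negative, SW1990 positive, CFPAC-1 negative and CFPAC-1 positive, with 3 samples each and 12 in all. No group carried a drug, a transgene or a targeted allele. All cells were grown as monolayers and stained with the same primary antibody, and the gates kept strongly stained and unstained cells only. The study's methods say that each fraction was sorted in triplicate, and neither they nor the labels say that the sorts came from separate cultures. The tests measure the spread between these samples, which may be technical. In sorted bulk RNA, fewer cells of a kind and less RNA per cell cannot be told apart.

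Matrix metalloproteinases are zinc enzymes made as inactive proenzymes and switched on outside the cell or at its surface. *MMP1* and *MMP13* encode collagenases that cut fibrillar collagen, *MMP7* encodes matrilysin, a small secreted enzyme made mainly by epithelial cells, *MMP10* encodes stromelysin-2, and *MMP11* encodes stromelysin-3, which furin activates inside the secretory pathway. *MMP14* and *MMP15* encode membrane-anchored enzymes, MT1-MMP and MT2-MMP. TIMPs bind the active enzymes and block them. TIMP-2 has a further role, since a complex of MT1-MMP and TIMP-2 at the cell surface receives the MMP-2 proenzyme for activation. TIMP-3 is held in the matrix and also inhibits ADAM proteases. RNA levels show none of these steps, and only transcripts were measured here.

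Values are RPKM as deposited, read counts scaled by gene length and library size. The library totals recovered from the RPKM values ran from 9969697 reads in CFPAC-1 positive replicate 3 to 26159330 in CFPAC-1 positive replicate 1. All 6 epithelial marker genes fixed for the check of cell type were above 1 RPKM on average in every group, and their summed RPKM was 1595 to 1942 in SW1990 negative, 4360 to 4841 in SW1990 positive, 5411 to 6173 in CFPAC-1 negative and 6676 to 8162 in CFPAC-1 positive samples. In SW1990, 5 of these 6 genes were called higher in positive cells, where 4.59% of all genes were. In CFPAC-1, 0 of the 6 were called in either direction, where 5.65% of all genes were called higher and 4.13% lower. At an adjusted p under 0.05 in limma without a fold limit, 3 were higher there (*KRT18*, *KRT7* and *KRT8*) against 22.3% of all genes. On the same rule 0 were lower against 14.2%. The log2 changes of all 6 in CFPAC-1 ran from -0.14 to 0.86. The 7 fibroblast markers summed to 12.7 to 22.6 RPKM in SW1990 negative, 3.90 to 4.88 in SW1990 positive and 1.42 to 2.40 in CFPAC-1 samples. Of these, 3 reached a mean of 1 RPKM in SW1990 negative cells, *LUM* at 13.2, *COL1A1* at 3.57 and *PDGFRB* at 1.76. The 4 endothelial markers summed to 14.8 to 18.8 in SW1990 negative and 0.751 to 2.05 in all other samples. Only 1 of these reached a mean of 1 RPKM in each SW1990 group, and 0 did in CFPAC-1. In negative cells *CDH5* and *PECAM1* were higher in SW1990 than in CFPAC-1, by 7.29 and 1.05 on the log2 scale, while *KDR* differed by -3.28. The 5 leukocyte markers summed to 34.6 to 48.6 and 15.4 to 33.1 in SW1990 negative and positive samples, against 111.5 to 166.9 in CFPAC-1. At most 2 of the 5 reached a mean of 1 RPKM in any group, and *PTPRC* had a mean of at most 0.0163. The part of these cell type markers in the results on the SW1990 fractions was not tested.

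*MMP7*, *MMP10*, *MMP1* and *MMP13*, 4 of the 10 genes, lie in the metalloproteinase cluster of chromosome 11 and read from the minus strand. In GENCODE 44 coordinates on GRCh37 they span 102391239 to 102401481, 102641233 to 102651359, 102660132 to 102668891 and 102813724 to 102826461. Of the 9 metalloproteinase genes of this cluster, 6 stayed under 1 RPKM in all 12 samples and 2 of those were listed at 0 throughout. *MMP11* (24110413 to 24126503) and *TIMP3* (33197691 to 33259028) lie on the plus strand of chromosome 22, *MMP14* (23305769 to 23318250) on the plus strand of chromosome 14, *MMP15* (58059658 to 58080805) on the plus strand of chromosome 16, *TIMP1* (47441807 to 47446188) on the plus strand of chromosome X and *TIMP2* (76849059 to 76921469) on the minus strand of chromosome 17. *TIMP1* and *TIMP3* lie within *SYN1* and *SYN3* on the opposite strand. They share 0 exon bases with these hosts, which reached at most 0.274 and 0.270 RPKM. *MMP1* shares 223 exon bases with the antisense pseudogene *WTAPP1*, and *TIMP2* shares 367 with an antisense RNA gene and 224 with *CEP295NL*, which reads the same way. The counting is not stated to have used strand, so reads in these stretches cannot be assigned between the genes.

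Promoter windows of the 250 bases before the annotated start were read from RefSeq sequence on GRCh38.p14, where 7 of the 10 genes had one. *MMP1*, *MMP13* and *TIMP2* had no entry. The windows of *MMP7* and *MMP10* are shown because these genes of 1 cluster have promoters of a like plan and, in CFPAC-1, very different levels. Capitals mark matches to 4 motifs, searched on both strands. The first is the AP-1 motif, spelled TGANTCA. An ETS motif of the PEA3 type was searched as AGGAAG. For the TCF/LEF family, the factors through which Wnt signals act, the letters searched were CTTTGA. The last was the TATA box, taken as TATAAA here. The *MMP7* window is chr11:102530748-102530997 and the *MMP10* window chr11:102780629-102780878, both on the minus strand and written 5′ to 3′.
MMP7: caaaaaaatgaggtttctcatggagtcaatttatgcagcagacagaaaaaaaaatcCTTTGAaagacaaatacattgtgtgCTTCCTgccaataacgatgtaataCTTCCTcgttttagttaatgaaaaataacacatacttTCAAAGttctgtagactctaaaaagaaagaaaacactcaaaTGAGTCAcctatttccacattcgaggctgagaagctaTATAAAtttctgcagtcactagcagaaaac
MMP10: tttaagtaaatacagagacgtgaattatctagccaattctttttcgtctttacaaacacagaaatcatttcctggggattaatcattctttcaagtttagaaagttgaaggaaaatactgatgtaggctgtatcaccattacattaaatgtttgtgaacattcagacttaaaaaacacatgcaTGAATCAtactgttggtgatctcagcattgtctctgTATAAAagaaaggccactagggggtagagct
Both windows held 1 AP-1 match starting 67 bases before the start, TGAGTCA in *MMP7* and TGAATCA in *MMP10*, and 1 TATA box, 30 bases before the start in *MMP7* and 31 in *MMP10*. *MMP7* also held 2 ETS matches, 169 and 145 bases before the start, and 2 TCF/LEF type matches, at 194 and 108, and *MMP10* held no match to either. *TIMP1* had 1 ETS match at 87 bases, and the windows of *MMP11*, *MMP14*, *MMP15* and *TIMP3* held none of the 4 motifs. Of all 35116 windows of this length, 6.57% held the AP-1 motif, 28.7% the ETS motif, 11.2% the TCF/LEF type motif and 10.7% the TATA box. The motifs do not overlap one another in these windows, and a match is only a match of letters.

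The *TIMP3* window, chr22:32801455-32801704 on the plus strand, is shown because *TIMP3* was among the most abundant genes of the set in SW1990 and at the limit of detection in CFPAC-1. Its capitals mark CG dinucleotides.
TIMP3: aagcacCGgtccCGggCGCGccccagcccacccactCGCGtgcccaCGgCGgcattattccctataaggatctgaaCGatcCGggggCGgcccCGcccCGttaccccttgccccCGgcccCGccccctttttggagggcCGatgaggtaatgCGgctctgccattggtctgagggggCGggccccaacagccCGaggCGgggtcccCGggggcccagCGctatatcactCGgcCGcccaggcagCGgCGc
It held 26 CG dinucleotides, against 3 in the *MMP7* window, 2 in *MMP10*, 7 in *MMP14*, 12 in *TIMP1*, 22 in *MMP11*, 31 in *MMP15* and a median of 11 over all windows. DNA methylation was not measured.

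**Figure D1:**
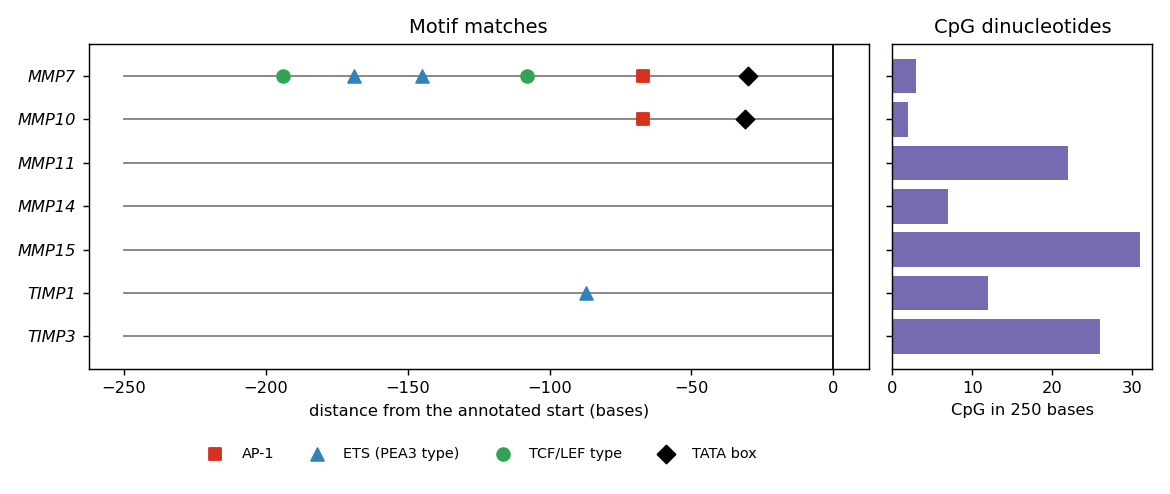
Motif matches (left, distance in bases from the annotated start, one line per gene) and number of CG dinucleotides (right) in the 250 bases before the start of the 7 genes with a RefSeq window. *MMP7* and *MMP10* carry the AP-1 and TATA matches and the fewest CG dinucleotides, 3 and 2, and *MMP15* carries the most, 31.

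Which of these genes each line used was the plainest feature of the data. In SW1990 negative cells the order of mean levels per length was *TIMP2* (395 ± 14.9 RPKM, SD, n = 3), *MMP14* (331 ± 4.92), *TIMP3* (284 ± 28.7) and *TIMP1* (33.5 ± 2.72), with no overlap between neighbours, followed by *MMP15*, *MMP11*, *MMP1* and *MMP13* between 9.94 and 4.40, each overlapping the next. *MMP7* and *MMP10* were below 1 RPKM on average. In CFPAC-1 negative cells *MMP7* led with 1010 ± 62.6 RPKM, ahead of *MMP14* (326 ± 22.7), *TIMP2* (260 ± 10.7), *TIMP1* (91.4 ± 10.8), *MMP15* (21.7 ± 0.136) and *MMP11* (1.50 ± 0.109), again without overlap between neighbours. *TIMP3* stood last there. In the positive cells *TIMP2* and *MMP14* still led in SW1990, with 294 ± 21.1 and 205 ± 17.5 RPKM, and *MMP7* led in CFPAC-1 with 474 ± 221, where its samples overlapped those of *TIMP2* (294 ± 64.6) and those of *TIMP2* overlapped those of *MMP14* (175 ± 70.5).

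**Figure D2:**
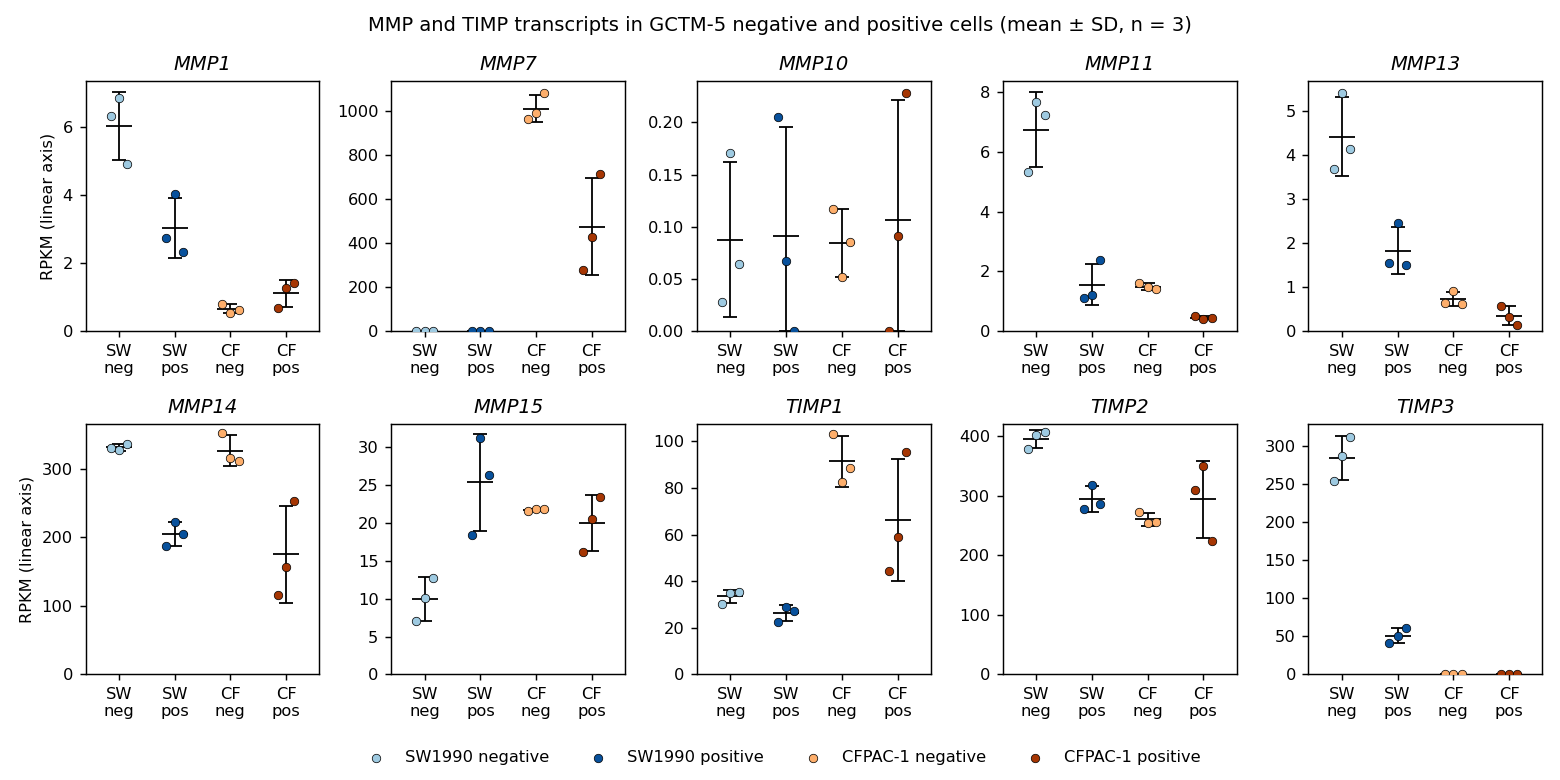
RPKM of the 10 genes in each sample on linear axes that start at 0, with a scale for each gene. Points are samples, and bars are the mean ± SD of 3 samples, with the lower bar stopped at 0. SW and CF stand for SW1990 and CFPAC-1, neg and pos for GCTM-5 negative and positive. *TIMP3* is high in SW1990 only and *MMP7* in CFPAC-1 only, and the positive CFPAC-1 samples are spread widely for *MMP7*, *MMP14*, *TIMP1* and *TIMP2*.

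*TIMP3* and *MMP7* were close to exclusive to 1 line each. *TIMP3* had 95614 reads over the 3 SW1990 negative samples and 10 over the 3 CFPAC-1 negative samples, a ratio of 9523 per unit of depth (95% exact counting interval 5178 to 19860). In positive cells the reads were 15071 and 2, a ratio of 7649 (2117 to 63160). *MMP7* went the other way, with 69234 reads in CFPAC-1 negative against 62 in SW1990 negative samples, a ratio of 1121 (874.5 to 1463), and 25156 against 7 in positive cells, a ratio of 3541 (1718 to 8807). These intervals cover counting error only. *MMP7* made up 56.1% to 61.4% of the summed RPKM of the 10 genes in CFPAC-1 negative samples, and in SW1990 *TIMP2*, *MMP14* and *TIMP3* made up most of it.

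**Figure D3:**
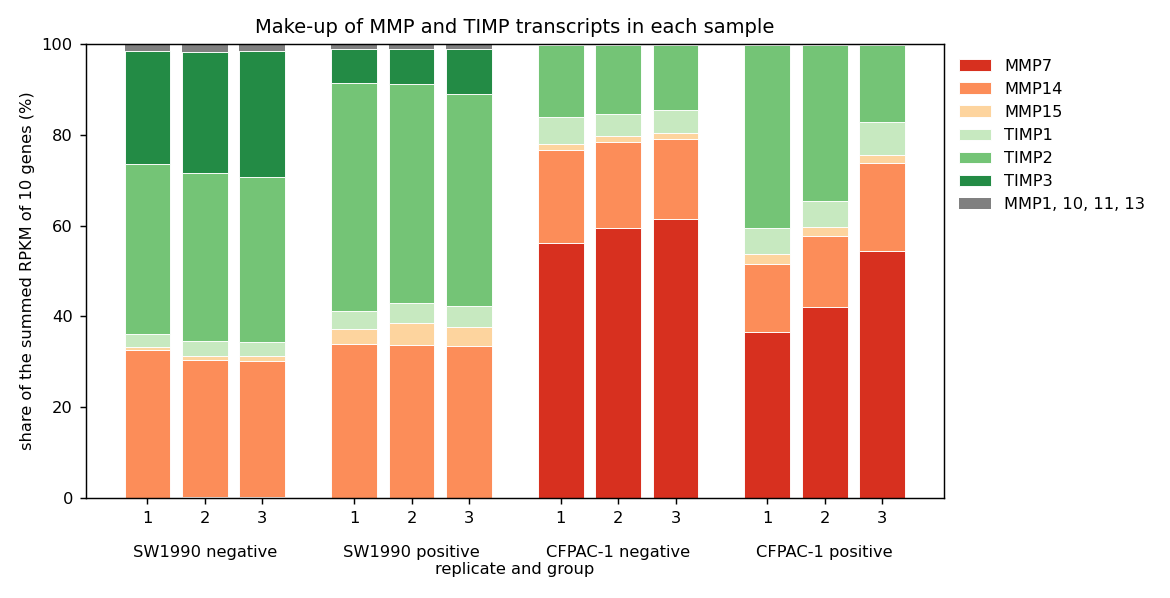
Share of the summed RPKM of the 10 genes taken by each gene, in percent, for each of the 12 samples grouped by line and fraction. *MMP7* takes the largest share in 5 of the 6 CFPAC-1 samples, and the share of *TIMP3* in SW1990 is at most 27.8% in negative and 7.5% to 9.9% in positive samples.

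Between the lines, a gene was called where it differed over 2-fold with an unadjusted p under 0.01 in limma on log2(RPKM + 0.1), and 9 of the 10 genes could be fitted. *MMP10*, with a mean RPKM below the filter of 0.1, was left out of the fit. In negative cells 4 of the 9 were called higher in SW1990 (*TIMP3*, *MMP1*, *MMP13* and *MMP11*), where 21.9% of all 16236 genes were called higher, and 3 were called lower (*MMP7*, *TIMP1* and *MMP15*), against 15% of all genes. In positive cells 4 were called higher (*TIMP3*, *MMP13*, *MMP11* and *MMP1*) against 14.8%, and 2 lower (*MMP7* and *TIMP1*) against 13.7%. The collagenase genes *MMP1* and *MMP13* were higher in SW1990 by log2 differences of 3.02 and 2.45 in negative cells and of 1.38 and 2.20 in positive cells. *MMP11* was higher by 2.08 and 1.51. *TIMP1*, a broad inhibitor of secreted metalloproteinases, differed by -1.44 and -1.27. The *MMP15* difference of -1.16 in negative cells was -0.93 without SW1990 negative replicate 1, and that of *TIMP1* in positive cells was -0.97 without CFPAC-1 positive replicate 3, both then under 2-fold. With a pseudocount of 1, *MMP1* and *MMP11* in positive cells were also under 2-fold (0.92 and 0.78). *MMP14* differed by only 0.02 and 0.30 and *TIMP2* by 0.60 and 0.02, and neither was called in either fraction. The median log2 difference of all genes was 0.19 in negative and 0.06 in positive cells, beside 0.60 and 0.32 for the 9 genes.

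Within SW1990, positive cells had less RNA for 4 of the 9 genes and more for 1. *TIMP3*, *MMP7*, *MMP11* and *MMP13* were called lower, where 7.48% of all genes were called lower, and *MMP15* was called higher, where 4.59% of all genes were. At an adjusted p under 0.05 (Benjamini-Hochberg over all 16236 genes) with no limit on fold, 7 were lower against 16.9% of all genes and 1 was higher against 11.3%. Of the genes under 2-fold, *MMP1* kept an adjusted p under 0.05 in 18 of 22 alternative settings, *MMP14* in 16 and *TIMP2* in 11. The median log2 change of the 9 genes was -0.99, against -0.04 for all genes.

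*TIMP3* had 254, 288 and 311 RPKM in SW1990 negative replicates 1, 2 and 3 and 41.6, 51.0 and 60.7 in the positive replicates. The groups were far apart, and the log2 change was -2.49 (SE 0.17, limma adjusted p = 6.35e-07). *MMP11* had 5.32, 7.68 and 7.23 RPKM in negative and 1.12, 1.20 and 2.37 in positive samples. The highest positive sample lay below the lowest negative one, with a log2 change of -2.10 (SE 0.26, limma adjusted p = 7.26e-05). *MMP13* had 3.67, 5.40 and 4.14 RPKM in negative and 1.54, 2.45 and 1.50 in positive samples, again without overlap. Its log2 change was -1.24 (SE 0.34, limma adjusted p = 0.0157), and it was no longer called when negative replicate 2, positive replicate 1 or positive replicate 3 was left out (log2 changes of -1.09, -1.14 and -1.12). *MMP7* rested on few reads in this line, 11, 31 and 20 in the negative samples (0.478, 1.19 and 1.01 RPKM) and 4, 3 and 0 in the positive samples. The read ratio of negative to positive cells was 7.79 (95% exact counting interval 3.56 to 20.2), and the fitted log2 change of -2.27 (SE 0.42, limma adjusted p = 0.00156) depends on the pseudocount at such levels. It was -0.75 with a pseudocount of 1 and -3.11 with voom, and was not called in either (limma adjusted p = 0.0484 and 0.106).

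*MMP15*, the membrane-anchored MT2-MMP gene, moved against the others. It had 6.99, 10.1 and 12.8 RPKM in SW1990 negative samples and 18.4, 31.2 and 26.4 in positive samples. All positive samples were above all negative ones, with a log2 change of 1.35 (SE 0.23, limma adjusted p = 0.000744). Its relative *MMP14* had 330, 327 and 337 RPKM in negative and 188, 223 and 204 in positive samples. The groups did not overlap, but the log2 change of -0.70 (SE 0.21, limma adjusted p = 0.0268) was under 2-fold. *MMP1* had 6.30, 6.84 and 4.90 RPKM in negative and 2.73, 4.01 and 2.34 in positive samples, a log2 change of -0.99 (SE 0.28, limma adjusted p = 0.0199) that stopped just short of 2-fold and passed it without negative replicate 3 (-1.13) or positive replicate 2 (-1.20). *TIMP2* changed by -0.43 (SE 0.14, limma adjusted p = 0.0375), from 378, 401 and 407 to 278, 318 and 286 RPKM. *TIMP1*, with 30.4, 35.0 and 35.2 RPKM in negative and 22.5, 28.9 and 27.4 in positive samples, did not pass (log2 change -0.36, limma adjusted p = 0.262).

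**Figure D4:**
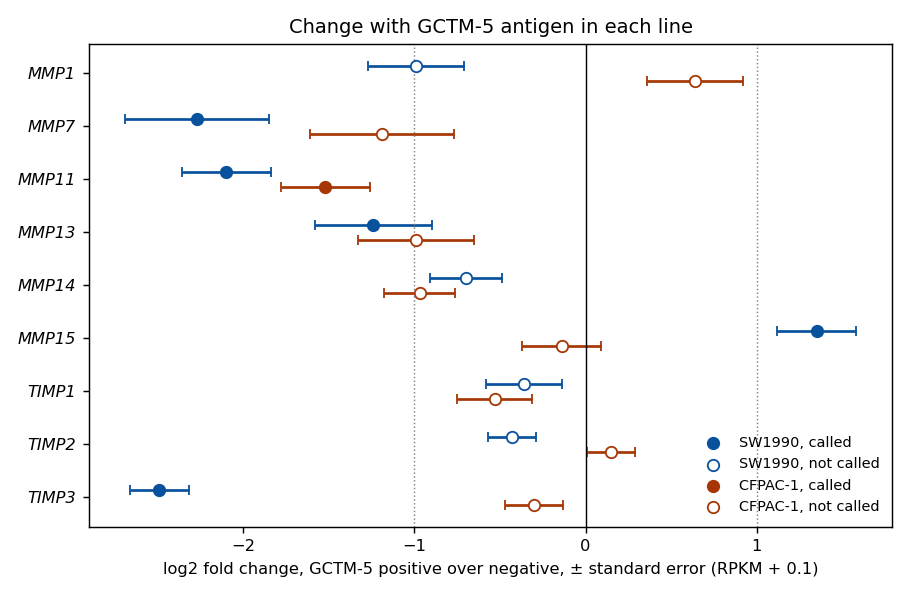
Log2 fold change of RPKM + 0.1 in GCTM-5 positive over negative cells for the 9 fitted genes in each line, with the standard error from limma. Filled points were called (over 2-fold and unadjusted p under 0.01) and dotted lines mark 2-fold. *MMP11* is the only gene called in both lines, and *MMP15* at 1.35 is the only one called higher.

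Within CFPAC-1, 1 of the 9 genes was called lower in positive cells, *MMP11*, where 4.13% of all genes were called lower, and 0 were called higher, where 5.65% of all genes were. At an adjusted p under 0.05 without the fold limit, 4 were lower (*MMP7*, *MMP11*, *MMP13* and *MMP14*) against 14.2% of all genes and 0 were higher against 22.3%. With a replicate block *MMP7* moved to an adjusted p of 0.0517 in limma, and with the CFPAC-1 groups alone *MMP13* and *MMP14* moved to 0.109 and 0.0514. Of 22 alternative settings, *MMP11* kept an adjusted p under 0.05 in 22, *MMP14* in 21, and *MMP7* and *MMP13* in only 12 each. At an unadjusted p under 0.05 in limma, 1 was higher (*MMP1*) against 27.6% of all genes and 5 were lower against 18.7%. With voom, 2 of the 9 were called over 2-fold (*MMP7* and *MMP11*), where 10.6% of all genes were called in either direction. The median log2 change of the 9 genes was -0.53, against 0.05 for all genes.

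*MMP11* had 1.61, 1.48 and 1.40 RPKM in CFPAC-1 negative and 0.524, 0.401 and 0.444 in positive samples. The groups were well apart, with a log2 change of -1.52 (SE 0.26, limma adjusted p = 0.000942). At a pseudocount of 1 it was -0.78, under 2-fold (limma adjusted p = 0.00434). *MMP11* was therefore called lower in positive cells of both lines, from a level in CFPAC-1 negative cells that overlapped the SW1990 positive one. *MMP7*, the most abundant gene of the set, had 961, 988 and 1081 RPKM in negative and 280, 428 and 715 in positive samples. All positive samples were below the negative ones but they differed widely among themselves, and the log2 change of -1.19 (SE 0.42, limma adjusted p = 0.0439) was over 2-fold without reaching an unadjusted p of 0.01. Fitted on the CFPAC-1 samples alone, it was not called either (-1.19, limma adjusted p = 0.0475). With a pseudocount of 1, or with recovered reads weighted by their precision (voom), the change was -1.19 and -1.21 and was called (limma adjusted p = 0.00401 and 0.000983). It was also called without SW1990 positive replicate 3, the sample with 0 *MMP7* reads (-1.19, limma adjusted p = 0.0185).

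*MMP14* had 353, 315 and 311 RPKM in CFPAC-1 negative and 116, 157 and 253 in positive samples, a log2 change of -0.97 (SE 0.21, limma adjusted p = 0.00403) just under 2-fold, and it reached the call without negative replicate 3 (limma adjusted p = 0.0134). *TIMP1* had 103, 82.4 and 88.4 RPKM in negative and 44.3, 59.1 and 95.4 in positive samples, which overlap. For *MMP7*, *MMP14* and *TIMP1* the positive sample nearest the negative cells was replicate 3, the library with the lowest total. Without it the log2 changes were -1.54 for *MMP7* (limma adjusted p = 0.0196), -1.27 for *MMP14* (7.61e-05) and -0.83 for *TIMP1* (0.00197). Of the 9 genes 3 were then called, and 1687 of all 16236. Without positive replicate 1, which lay farthest from the negative cells, the log2 changes were smaller, -0.87 for *MMP7* (limma adjusted p = 0.166), -0.71 for *MMP14* (0.0107) and -0.28 for *TIMP1* (0.295). *TIMP2*, with 273, 254 and 255 RPKM in negative and 309, 350 and 223 in positive samples, overlapped (log2 change 0.15, limma adjusted p = 0.427). Without positive replicate 3 the other positive samples lay above all negative ones, with a log2 change of 0.34 (limma adjusted p = 0.0156). In positive replicate 3 *FUT3*, a fucosyltransferase gene of Lewis antigen synthesis, stood at 3.18 RPKM against 4.93 and 5.27 in positive replicates 1 and 2, and above the highest negative sample (0.547). The mesenchymal filament gene *VIM* stood at 574 RPKM there against 407 and 406. Both genes were picked after their values were seen. The 6 epithelial markers, fixed beforehand, summed to 8162 RPKM in this sample, the highest sum of the group. *KRT8* (3319 RPKM), *KRT18* (1271), *KRT19* (2744), *KRT7* (472) and *EPCAM* (258) were each highest there among the positive samples, and *CDH1* (98.4) lay in the middle. The negative means of *KRT8*, *KRT18* and *KRT7* were 1703, 761 and 178 RPKM. The part of depth or of the make-up of the sorted cells in this spread was not tested.

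The collagenase genes were low in CFPAC-1. *MMP13* had 0.642, 0.908 and 0.627 RPKM in negative samples and 0.576, 0.313 and 0.148 in positive samples, the last from 41, 16 and 4 reads. The positive samples were below the negative ones, with a log2 change of -0.99 (limma adjusted p = 0.0371). Without positive replicate 1 it was -1.35 and was called, and without positive replicate 3 it was -0.63 (limma adjusted p = 0.121). With a pseudocount of 1 it was -0.37 (limma adjusted p = 0.104). *MMP1* had 0.800, 0.534 and 0.635 RPKM in negative and 0.670, 1.27 and 1.42 in positive samples, which overlap (log2 change 0.64, limma adjusted p = 0.0923, and 0.95 with 0.0186 without positive replicate 1). *MMP15* had 21.6, 21.8 and 21.8 RPKM in negative and 16.1, 20.5 and 23.4 in positive samples, on both sides of the negative level (log2 change -0.14, limma adjusted p = 0.675). *TIMP3* had 2, 6 and 2 reads in negative and 2, 0 and 0 in positive samples, a ratio of 4.48 with a counting interval of 0.955 to 42.1, which includes equal levels. With a pseudocount of 0.01 these same reads gave a called log2 change of -1.45 (limma adjusted p = 0.011), so the call rests on the pseudocount.

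*MMP10* was near the limit of detection in every group, with 0 to 7 reads per sample and at most 0.228 RPKM. In SW1990 the ratio of positive to negative reads per unit of depth was 1.02 (95% exact counting interval 0.368 to 2.80). For CFPAC-1 it was 0.868 (0.275 to 2.62), so differences within these intervals could not have been seen.

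The difference between the changes of the lines was tested as an interaction. *MMP15* was called higher, where 5.33% of all genes were, and *MMP1* and *TIMP3* lower, where 8.84% were. At an adjusted p under 0.05, 1 gene was higher against 9.16% of all genes and 3 were lower, *TIMP2* in addition, against 17.8%. The *TIMP2* difference passed this threshold in 6 of 21 alternative settings, with adjusted p-values in limma of up to 0.169. The *MMP1* change in SW1990 minus that in CFPAC-1 was -1.63 (SE 0.40, limma adjusted p = 0.00995), with a lower value in SW1990 positive cells and a higher mean in CFPAC-1 positive cells. For *MMP15* the difference was 1.49 (SE 0.32, limma adjusted p = 0.00495). For *TIMP3* it was -2.19 (limma adjusted p = 5.85e-05), but with CFPAC-1 near 0 reads it was -1.04 at a pseudocount of 0.01 and -0.78 with voom, and no longer called (limma adjusted p = 0.174 and 0.595). The difference for *MMP11*, -0.58 (SE 0.36, limma adjusted p = 0.269), and for *MMP14*, 0.27 (SE 0.30, limma adjusted p = 0.533), did not pass. That does not show that the lines changed alike. The median difference was -0.15 over all genes and -0.58 over the 9.

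*MMP14* and *TIMP2* encode the partners of the surface complex that activates MMP-2, and their ratio was compared per sample. In SW1990 it was 0.839 ± 0.0291 (SD, n = 3) in negative and 0.696 ± 0.0202 in positive samples. In CFPAC-1 it was 1.25 ± 0.0362 in negative samples and 0.374, 0.450 and 1.13 in positive replicates 1, 2 and 3. Positive samples lay below negative ones in both lines, by mean log2 differences of -0.27 and -1.12, with an exact 2-sided permutation p of 0.1 in each, the smallest that 3 samples against 3 can give. The summed RPKM of the 7 metalloproteinase genes over that of the 3 TIMP genes was also taken. SW1990 had 0.505 ± 0.0238 in negative and 0.637 ± 0.0196 in positive samples, whereas CFPAC-1 had 3.88 ± 0.291 in negative and 1.93 ± 1.05 in positive samples (exact permutation p = 0.1 in each, n = 3). *TIMP3* in SW1990 and *MMP7* in CFPAC-1 carry much of these sums.

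Among the other 17 genes of the family, the remaining metalloproteinases and *TIMP4*, 7 passed the filter. For this and the lists that follow, the shares of all genes called are 7.48% lower and 4.59% higher in SW1990 and 4.13% lower and 5.65% higher in CFPAC-1. In SW1990 4 of these were called lower in positive cells and 1 higher, and in CFPAC-1 1 was lower and 1 higher. *MMP2*, the gelatinase activated by the MT1-MMP complex, was 139 ± 24.4 RPKM (n = 3) in SW1990 negative and 21.3 ± 2.18 in positive cells, a log2 change of -2.68 (SE 0.22, limma adjusted p = 3.25e-06). It was at most 0.131 RPKM in CFPAC-1. *MMP19* was called lower in both lines, with 5.14 ± 1.33 and 1.91 ± 0.534 RPKM in SW1990 negative and positive cells, 3.38 ± 0.307 and 1.58 ± 0.409 in those of CFPAC-1, and log2 changes of -1.39 and -1.07. *MMP17*, which encodes a membrane-anchored enzyme, fell by 1.45 on the log2 scale in SW1990, and *MMP28*, which encodes epilysin, rose by 1.17 there.

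Of the list of genes for activation and surface control, 14 of 15 were fitted. Of these, 3 were lower and 1 higher in SW1990 positive cells, and limma called 4 lower and 0 higher in CFPAC-1. At an unadjusted p under 0.05 in CFPAC-1, 9 were lower against 18.7% of all genes and 1 was higher against 27.6%. *SERPINE2*, an inhibitor of serine proteases, changed by -3.02 in SW1990 and -1.03 in CFPAC-1 on the log2 scale, and *LRP1*, an uptake receptor for proteases and their inhibitors, by -1.69 and -1.11. *RECK*, a membrane-bound inhibitor of metalloproteinases, fell by 2.42 in SW1990, and *PLAT*, tissue plasminogen activator, fell by 2.02 in CFPAC-1. *RECK* changed by -0.61 in CFPAC-1 and *PLAT* by 0.25 in SW1990, and neither passed.

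Of the ADAM and ADAMTS proteases, many of which TIMP-3 inhibits, 22 of 28 were fitted. In SW1990, 4 were lower and 1 higher, and in CFPAC-1, 2 were lower and 1 higher, the last near the share of all genes. *ADAMTS2*, which trims procollagen, had 318 reads over the SW1990 negative and 9 over the positive samples, *ADAM33* had 81 and 0, and *ADAMTS10* had 85 and 2, all 3 under 1 RPKM. These 3, among the 4 counted as lower, passed the filter on mean RPKM only through SW1990 negative, the group where they are high, so the count of 4 does not stand apart from the filter. *ADAMTS14*, a relative of *ADAMTS2*, went from 9.05 ± 0.344 to 2.59 ± 1.27 RPKM (n = 3) in CFPAC-1 and was called lower there. Of 13 fitted substrates of 15, 5 were higher and 2 lower in SW1990 positive cells, and limma called 0 higher and 1 lower in CFPAC-1. At an unadjusted p under 0.05 in CFPAC-1, 4 substrates were higher and 3 lower, near the 27.6% and 18.7% of all genes. The laminin chain gene *LAMA3* rose by 2.51 on the log2 scale in SW1990, and the gene of the junction protein E-cadherin, *CDH1*, by 3.04. *SPP1*, which encodes osteopontin, fell by 3.88 in SW1990 and by 1.35 in CFPAC-1. Of 14 genes for AP-1 and ETS factors, 2 were lower (*ETV5* at -1.38 and *ETV1* at -1.35) and 1 higher (*ELF3* at 1.39) in SW1990. In CFPAC-1, 0 of the factor genes were called by limma in either direction. At an unadjusted p under 0.05 without the fold limit, 2 were higher there against 27.6% of all genes and 5 lower against 18.7%. The median log2 changes in SW1990 and CFPAC-1, set beside -0.04 and 0.05 for all genes, were -1.06 and -0.37 for the other family members, 0.12 and -0.71 for the activation list, -0.54 and -0.16 for the ADAM and ADAMTS list, 0.56 and 0.19 for the substrates and -0.18 and -0.26 for the factors.

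The genes whose pattern over the 12 samples was most like that of a member were sought among 13266 others with a mean of at least 1 RPKM, by Pearson's r of log2(RPKM + 0.1). The samples fall into 4 groups, so r mainly compares 4 levels and is given without a p. *TIMP3* was closest to *NAT8L* (r = 0.999) and *MMP7* to *HSPA2* (r = 0.996), both marking the split between lines. *MMP11* was closest to *ARHGEF25* (0.986), *MMP13* to *KCTD14* (0.981), *TIMP1* to *HEXA* (0.981) and *MMP1* to *NAPA* (0.976). *MMP15* was closest to *TJP3* (0.972), a tight junction scaffold gene, *MMP14* to *PML* (0.968) and *TIMP2* to *KATNAL1* (0.963).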

How the data were processed

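RNA-seq of sorted SW1990 and CFPAC-1 cells was used (12 samples, 3 per group, groups and replicate numbers from the titles). QuasR was used by the authors on reads aligned to GRCh37 (hg19), and the values they deposited are RPKM, counts divided by gene length and library size. The annotation, the use of strand and the QuasR version are not given in the sources used here, and the labels and the paper name different library kits. With a gene length sought for each gene, every RPKM came out as a whole number of reads (within 0.01) for all 19654 genes above 0. The library totals and the reads behind each value were recovered in this way. For genes above 0 in few samples a fitting length is easily found, so wholeness is no check of their reads. No 2 samples held the same values.

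The 16236 of 23346 genes whose mean RPKM reached 0.1 were kept. Their log2(RPKM + 0.1) went into limma 3.58.1 under R 4.3.3 (4 group means, eBayes with trend, 2-sided). This log scale understates changes of low genes. A call needed over 2-fold and an unadjusted p under 0.01. The study states over 2-fold and p under 0.01 without saying whether its p was adjusted. Adjusted p-values are Benjamini-Hochberg over all fitted genes. The study names TCC, a count method, which was not used because the deposited unit is RPKM. The members and the gene lists were chosen with earlier results of these data known, and the study itself names several of them from these samples, so they are no independent evidence of direction. Named beside the members are, per list, up to 4 genes: those called in both lines, then the largest changes among those called. Of the genes this rule names, 1 is not reported here. *FUT3* and *VIM* were added after their values were seen. The titles do not say whether same-numbered fractions of a line came from 1 sort. Same-numbered samples did not deviate together in every pair, which does not settle this, and the main fit did not pair them. The replicate block took the number within each line for the tests within lines and their difference. For the tests between lines it took the number across both lines. Alternatives were other pseudocounts and filters, median centring, quantile normalization, only the compared groups in the fit, eBayes without a trend, a replicate block, other thresholds, each sample left out and, added after seeing the data, voom on the recovered reads. Coordinates are from GENCODE 44 on GRCh37, matched by symbol, and promoter sequences from RefSeq.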

Additional observations from a re-analysis of the deposited data

Results flagged for a closer look

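The change with GCTM-5 differed between the lines, by the test of the difference itself at an adjusted p under 0.05 in limma, for 4 of the 9 fitted genes, where 26.9% of all genes passed. On the log2 scale, the change in SW1990 minus that in CFPAC-1 was -1.63 for *MMP1*, 1.49 for *MMP15*, -0.58 for *TIMP2* and -2.19 for *TIMP3*. The *TIMP2* difference was under 2-fold (limma adjusted p = 0.0473) and passed in only 6 of 21 alternative settings, and the size of the *TIMP3* difference is set by the pseudocount, since CFPAC-1 held 0 to 6 reads of it per sample.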

How the results depend on the processing

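Of the values of single genes under the alternatives, 943 kept their direction and their side of the threshold, 15 passed it newly, 13 no longer passed it and 10 changed sign, the last all for uncalled values. In SW1990, 5 genes were called, 3 with a pseudocount of 1 (not *MMP7* at -0.75 or *MMP13* at -0.94) and 8 without the fold threshold. Of all 16236 genes, 1101 were called in SW1990 with a pseudocount of 1 and 4225 without the fold threshold. *MMP7* was also not called there with voom (-3.11, limma adjusted p = 0.106). In CFPAC-1 the single call was least steady: 2 were called with a pseudocount of 0.01 (*TIMP3* in addition), quantile normalization, an adjusted p under 0.05, no fold threshold or voom, 3 with each sample centred on its median, and 1 to 3 with 1 sample left out. In this order the settings called 1599, 1591, 1697, 5131, 1721 and 1582 of all 16236 genes, and 1356 to 1755 with 1 sample left out. *MMP11* was at -0.78 in CFPAC-1 with a pseudocount of 1, under 2-fold. The sign turned for the *MMP7* difference between lines with a pseudocount of 1 (0.44) and, with median centring, for *MMP14* between lines in negative cells (-0.17) and *TIMP2* in positive cells (-0.02). With 1 sample left out, these last spanned -0.01 to 0.08 and -0.16 to 0.16, *MMP15* in CFPAC-1 -0.26 to 0.01, and the difference between lines -0.62 to 0.11 for *MMP13* and -0.08 to 0.47 for *TIMP1*. The causes were not tested. Replicate block: same-numbered samples correlated at 0.185, 0.016 and 0.116 in SW1990 and -0.020, 0.001 and -0.059 in CFPAC-1, and with a block the calls numbered 5, 1, 3, 7 and 6 in SW1990, CFPAC-1, their difference and the lines in negative and positive cells, as without it, though the adjusted p of *MMP7* in CFPAC-1 moved to 0.0517. With the block, 1961, 1587, 2253, 5988 and 4641 of all 16236 genes were called in these comparisons. Depth limits *MMP10* in all groups, *TIMP3* in CFPAC-1 and *MMP7* in SW1990.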
